A study of Homo sapiens with 3 samples.

Results

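The TMPRSS2 and ERG locus on chromosome 21 held 24 of the 35740 p53 peaks that were listed in VCaP cells. Its members are the peaks with a summit between 39700000 and 42950000 (hg19), a stretch of 3.25 Mb with ERG at 39751949 to 40033704 and TMPRSS2 at 42836478 to 42903043. The choice went by position, and no peak value entered the rule, though earlier results of these data were known. ERG shRNA listed 18 of the members, ERG shRNA 2 listed 0 and the luciferase shRNA control listed 6. Within the ERG span the counts were 4, 0 and 0, and 3 of those 4 peaks were the strongest that ERG shRNA listed on chromosome 21 beyond 15 Mb. In a span of 282 kb a count of 0 allows up to 10.6 peaks per Mb. That is more than the control's 4.35 in the rest of chromosome 21 beyond 15 Mb. Within the TMPRSS2 span the counts were 0, 0 and 1.

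VCaP is an established human prostate cancer cell line. The cells carry the p53 mutation R248W, and all libraries share it. Chromatin bound by p53 was immunoprecipitated and sequenced (ChIP-seq) once with a first ERG shRNA, once with an ERG shRNA numbered 2, and once with luciferase shRNA as the control. The series asked whether mutant p53 stays on chromatin when ERG is knocked down. The antibody DO-1 is named in the labels of the first ERG shRNA and control libraries. The label of ERG shRNA 2 names none, while its file header and the series' design text name DO1. Each library pooled at least 3 immunoprecipitations, so each group had 1 library, and every interval here covers counting error only and compares libraries, not conditions. Expression was not analysed here, so neither the extent of the ERG knockdown nor the identity of the cells was checked.

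ERG is a transcription factor of the ETS family, which binds DNA at a GGAA core. TMPRSS2 is a membrane serine protease whose gene is strongly induced by androgen in prostate epithelium. The genes lie on the same strand, and in many prostate cancers, VCaP among them, a rearrangement joins the androgen-driven start of TMPRSS2 to the coding part of ERG. R248W changes a residue of p53 that touches DNA, and proteins with this mutation reach chromatin partly through other factors. The breakpoints and copy number of the rearranged locus in VCaP were not analysed here. Between ERG and TMPRSS2 the RefSeq table (GRCh38.p14) orders 16 protein-coding genes, beginning with the ETS gene ETS2 next to ERG and ending with the interferon-induced genes MX2 and MX1 next to TMPRSS2. That table is of another build, so peaks were placed only relative to the hg19 spans of ERG and TMPRSS2, and exon or intron positions were not analysed here.

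The libraries differed in depth. The first ERG shRNA held 4853617 tags, ERG shRNA 2 held 52175068 and the control 9258451, and the lists held 17321, 433 and 17986 peaks. Fold enrichment is the authors' ratio of pileup (overlapping extended tags at the summit) to local background, each with 1 added, and is comparable only within a list. On chromosome 21 ERG shRNA 2 listed 10 peaks, and all 10 lay at or below 15 Mb. A 0 for ERG shRNA 2 thus holds for the locus and for the whole of the remaining chromosome arm.

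**Figure D1:**
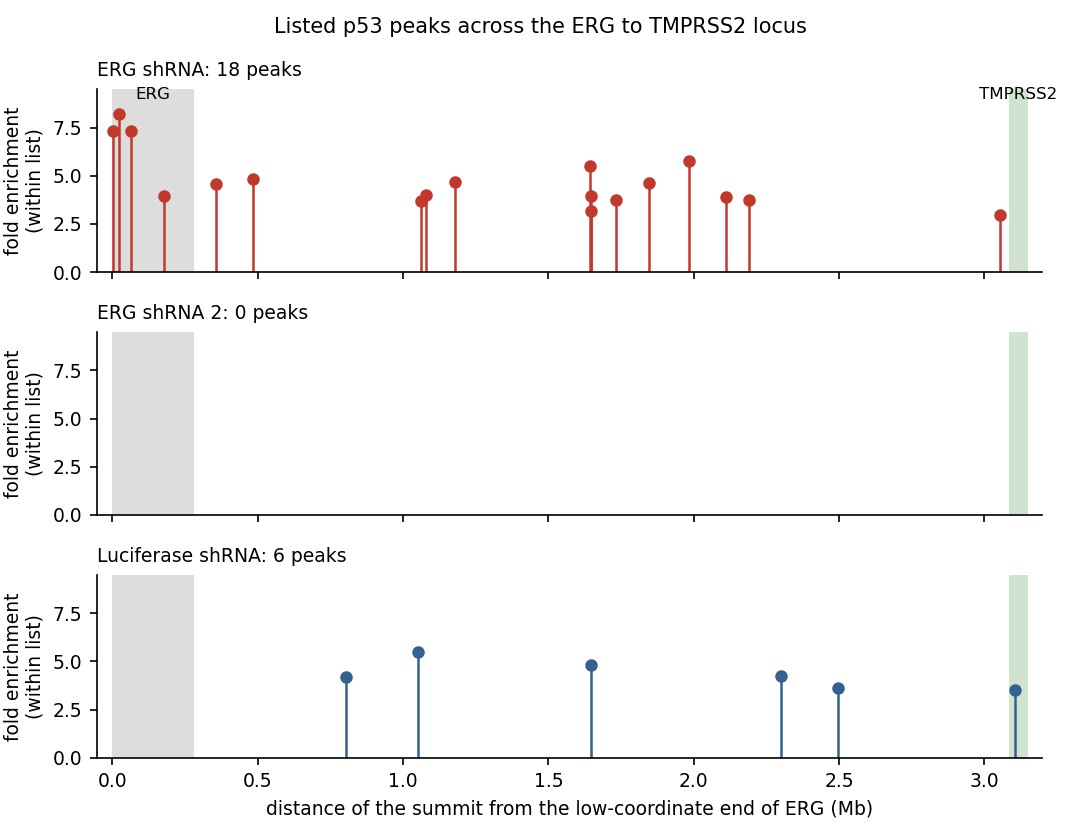
Fold enrichment within each list (y axis) of each listed peak against the distance of its summit from the low-coordinate end of ERG in Mb (x axis), for ERG shRNA, ERG shRNA 2 and luciferase shRNA. The grey band is the ERG span and the green band the TMPRSS2 span; the 3 tallest of the 18 ERG shRNA peaks stand in the ERG span, where the other lists are empty.

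In the ERG span ERG shRNA listed 3 strong peaks and a weak one, and the other libraries listed none. Whether these peaks coincide with exons of ERG, and whether their tags came from the chromosomal gene, was not tested. The first ERG shRNA peak lay at chromosome 21, 39755592 to 39755795, with a pileup of 10 tags and a fold enrichment of 7.31. The second lay at 39775443 to 39775616, with 11 tags and a fold of 8.18. The third lay at 39817342 to 39817567, with 9 tags and a fold of 7.30. The outer summits of these 3 peaks were 61.8 kb apart, and all 3 lay in the part of ERG away from its start, since ERG is read from high to low coordinates. They were 204, 174 and 226 bp wide, against a median of 115 bp in the whole ERG shRNA list, which is also the narrowest width that list could hold. The authors' q values were 5.85e-07, 1.46e-08 and 6.27e-07. The fourth ERG shRNA peak, at 39930290 to 39930404, was of another order, with 4 tags, a fold of 3.93, a width of 115 bp and a q of 0.0242.

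Ranked by fold in their own list, the 3 strong ERG peaks stood at places 557, 351 and 559 of 17321, within the top 3.23%. The fourth stood at 11972. In the rest of chromosome 21 beyond 15 Mb, 0 of 134 ERG shRNA peaks reached a fold of 7.30, which allows a share of up to 2.24%. That limit lay below the share of the whole ERG shRNA list, 3.23% (2.97 to 3.50), so this stretch was poor in such strong peaks. The highest of the 134 had a fold of 6.31, with 7 tags. In the control list 4 of 130 peaks there (3.08%, exact Clopper-Pearson 95% interval 0.845 to 7.69) passed the same number, but on that list's own scale.

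**Figure D2:**
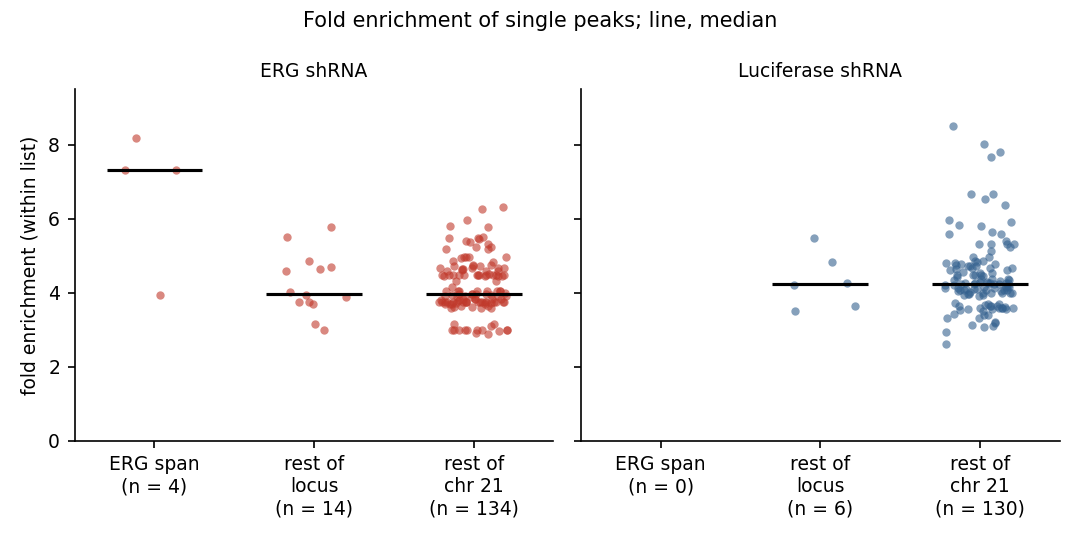
Fold enrichment within each list (y axis) of single peaks in the ERG span, the rest of the locus and the rest of chromosome 21 beyond 15 Mb, for ERG shRNA (left) and luciferase shRNA (right); points are peaks and lines are medians. In ERG shRNA 3 of the 4 peaks in the ERG span, at 7.30 to 8.18, stand above all 134 peaks of the rest of the chromosome, of which the highest is 6.31.

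At the strength of the 3 ERG peaks, few ERG shRNA peaks without a control counterpart lay close together. At or above a fold of 7.30, the lowest of the 3, the whole ERG shRNA list held 559 peaks (3.23%), and 145 of these were overlapped by no control peak. Joined where neighbouring summits lay within 100 kb, the 145 formed 141 places: 138 of a single peak, 2 of a pair, and 1 of 3, which was ERG. That threshold was taken from the ERG peaks themselves after their values were seen. The ERG peaks also passed the filter on control overlap because the control listed 0 peaks in the ERG span. Places among all 559 peaks were not counted, and the joining distance was not varied. The count is thus a description. At a fold of at least 6, which 6.58% of the list reached, there were 7 places with 3 or more such peaks, and at a fold of at least 5, which 17.4% reached, there were 59.

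The height of the 3 strong ERG peaks can be set beside the calling limits of the other lists, as a description, since a peak is a member only where its own list called it. At these peaks the ERG shRNA pileup was 19.8, 23.6 and 24.4 times the local background. The lower ends of the exact Poisson 95% intervals of the tag counts correspond to 9.49, 11.8 and 11.1 times. If the background at these places had the same ratio to the genome-wide value in each library, the control would have listed any pileup of at least 6, 6 and 5 tags that spanned 148 bp, or 4.84, 5.24 and 5.52 times its background. For ERG shRNA 2, whose pileups were scaled down to the input total, the smallest such scaled pileups were 8, 7 and 6, or 3.996, 3.79 and 4.10 times its background. The premise of a common background rests on equal input totals in the headers. Setting the ratios of one library beside the limits of another also takes the libraries to be equally enriched, which was not tested. At the 2444 pairs of overlapping ERG shRNA and control peaks across the genome the background ratio had a median of 1.00 (quartiles 1.00 to 1.29). At 51 pairs of ERG shRNA 2 and control peaks the median was 0.999 (0.962 to 1.00). Where both backgrounds stood at the genome-wide value, the lowest possible, the ratio is 1.00 by construction. The 3 strong ERG peaks stood above that value, so these medians say little about them. A summit is the highest point of its peak, and only peaks that passed the cutoff are listed. The summit counts, and both ends of their intervals here and below, thus tend to be too high.

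The local background at the 3 strong ERG peaks was also raised. It was 2.44, 2.26 and 1.79 times the genome-wide value, against a median of 1.61 times over the 134 ERG shRNA peaks of the rest of chromosome 21 and 1.41 times over the 14 ERG shRNA peaks of the locus outside the ERG span. The fourth ERG peak stood at 1.32 times, below both medians. The background comes from the input or from the genome-wide rate, whichever is higher, so the input held more tags near the 3 strong ERG peaks than near the median peak. The part of this in the result was not tested.

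Between ERG and TMPRSS2 all listed folds were below those of the 3 strong ERG peaks, though control folds stand on another scale. ERG shRNA listed 14 peaks there, ERG shRNA 2 listed 0 and the control 5, which is 4.995, 0 and 1.78 peaks per Mb. Of the 14 ERG shRNA peaks, the strongest lay at 41735577 to 41735700, with 7 tags and a fold of 5.76. Next came 41395775 to 41395969, with 6 tags and a fold of 5.50. The following 3 had 5 tags each: 40237027 to 40237141 (fold 4.85), 40929074 to 40929202 (4.69) and 41598578 to 41598692 (4.63). The other 9 had 3 to 5 tags and folds of 2.98 to 4.58. The lowest of all, at 42806157 to 42806271, lay nearest to TMPRSS2 and had the highest background of the locus, 3.27 times the genome-wide value.

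The 5 control peaks between the genes had folds of 3.65 to 5.47. The strongest lay at 40803728 to 40803902, with 8 tags and a fold of 5.47, and ranked 2337 of 17986 in its list. The peak at 41399339 to 41399527 had 7 tags and a fold of 4.82. Those at 42051354 to 42051527 and 40556224 to 40556371 had 6 tags each and folds of 4.26 and 4.20. The peak at 42246375 to 42246540 had 5 tags and a fold of 3.65.

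At TMPRSS2 the control listed 1 peak and the ERG shRNA libraries 0. It lay at 42858048 to 42858195, 44.9 kb inside the high-coordinate end of the gene, from which TMPRSS2 is read. It was the weakest control member, with 6 tags, a fold of 3.50 and a q of 0.0730, and its background was 1.97 times the genome-wide value. At that background the first ERG shRNA library would have listed a pileup of at least 3 tags, or 7.35 times its background, while the control peak stood at 5.99 times. The Poisson interval of the control peak, 2.198 to 13.03 times its background, included that limit, so the missing ERG shRNA peak says little either way at this depth. No peak of any list lay in the margins of the locus outside ERG and TMPRSS2.

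No member was shared between libraries. Of the 18 ERG shRNA peaks 0 were overlapped by a control peak, which allows a share of up to 16.7%, against 8 of 134 (5.97%, 2.61 to 11.4) in the rest of chromosome 21 and 14.0% of the whole list. Of the 6 control peaks 0 were overlapped by an ERG shRNA peak, which allows up to 50%, against 8 of 130 (6.15%, 2.69 to 11.8) in the rest of the chromosome and 13.5% of the whole list. With so few members, an overlap share below that of the chromosome was not detectable. ERG shRNA 2 overlapped 0 of the 18 and 0 of the 6, against 0.306% and 0.284% of the whole lists.

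The libraries came closest to each other about midway between the genes, where ERG shRNA listed 3 peaks from 41395775 to 41397956. They had 6, 4 and 3 tags and folds of 5.50, 3.93 and 3.16. The control peak at 41399339 began 1382 bp after the last of them. The next closest pair were 9809 bp apart, the ERG shRNA peak at 40813712 to 40813826, with 4 tags and a fold of 3.70, and the strongest control member. For the 18 ERG shRNA peaks the median distance to a control peak was 156 kb, and it was largest, 800 kb, for the first ERG peak.

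The calling limits of the lists differed between the libraries. The pileup of each of the 18 ERG shRNA members, at 5.92 to 24.4 times background, was above the 4.22 to 6.87 times that the control could list at the same places. So was every one of the 17321 peaks of that list (100%), whose own limit at the members was 5.92 to 12.7 times, so this count is no property of the locus. By the lower end of the Poisson interval 5 of the 18 were above it, against 16 of 134 in the rest of chromosome 21 and 18.0% of the whole list. The 5 were the 3 strong ERG peaks and the 2 with folds of 5.50 and 5.76. In the other direction 1 of the 6 control members, the strongest, was above the 7.35 to 11.4 times that ERG shRNA could list, against 26 of 130 in the rest and 19.5% of the whole list. By the lower end of the interval 0 of the 6 were, against 0 of 130 in the rest and 1.41% of the whole list.

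**Figure D3:**
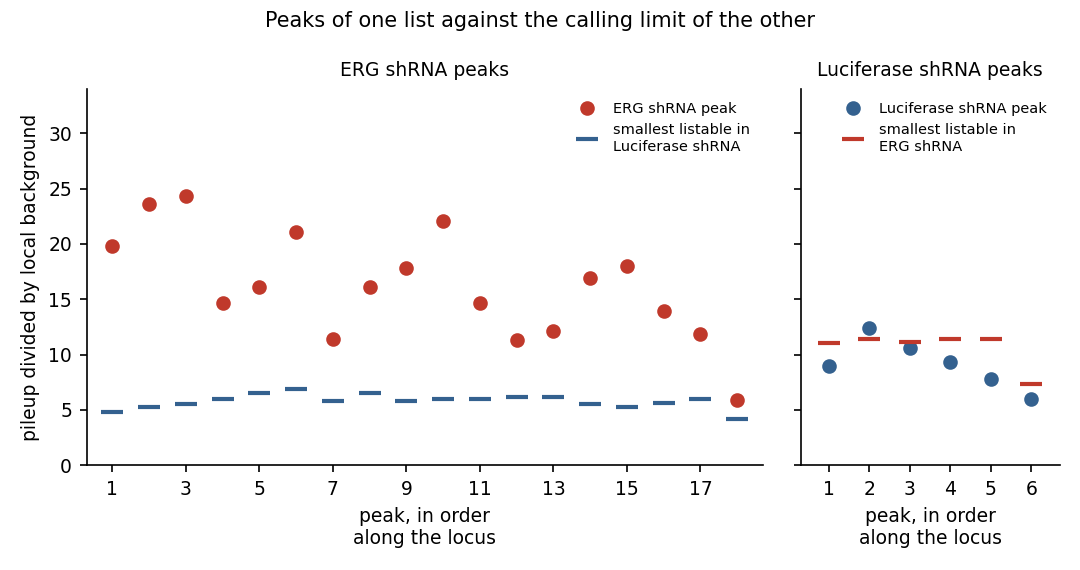
Pileup divided by local background (y axis) of each listed peak, in order along the locus (x axis), for ERG shRNA (left) and luciferase shRNA (right); circles are the peaks, and dashes are the smallest value the other list could hold at that place. All 18 ERG shRNA peaks stand above the luciferase shRNA limit, as did all 17321 of that list, while 1 of the 6 luciferase shRNA peaks stands above the ERG shRNA limit.

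Peaks were denser in the locus in ERG shRNA than in the control, with intervals that overlapped. ERG shRNA had 5.54 peaks per Mb in the locus (exact Poisson 95% interval 3.28 to 8.75) and 4.49 in the rest of chromosome 21 beyond 15 Mb (3.76 to 5.31), a ratio of 1.23 (0.710 to 2.03). The control had 1.85 in the locus (0.678 to 4.02) and 4.35 in the rest (3.64 to 5.17), a ratio of 0.424 (0.153 to 0.948). Against all other main chromosomes the ratio was 0.969 in ERG shRNA, below 1, and 0.309 in the control. Relative to the rest of chromosome 21, the interval of the ERG shRNA ratio included 1, and that of the control ratio lay below 1. ERG shRNA 2 had 0 in the locus, which allows up to 0.923 peaks per Mb, and 0 in the rest, which allows up to 0.100.

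Seen across both lists together, ERG shRNA supplied 18 of the 24 peaks of the locus (75%, 53.3 to 90.2). In the rest of chromosome 21 it supplied 134 of 264 (50.8%, 44.6 to 56.9). The intervals of locus and rest overlapped, which does not show that the shares are equal. In the whole of both lists it supplied 17321 of 35307 (49.1%, 48.5 to 49.6), an interval that lay below that of the locus. Leaving out the ERG span, its share of the locus was 14 of 20 (70.0%, 45.7 to 88.1). That interval overlapped the one for the rest and the one for the whole of both lists.

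**Figure D4:**
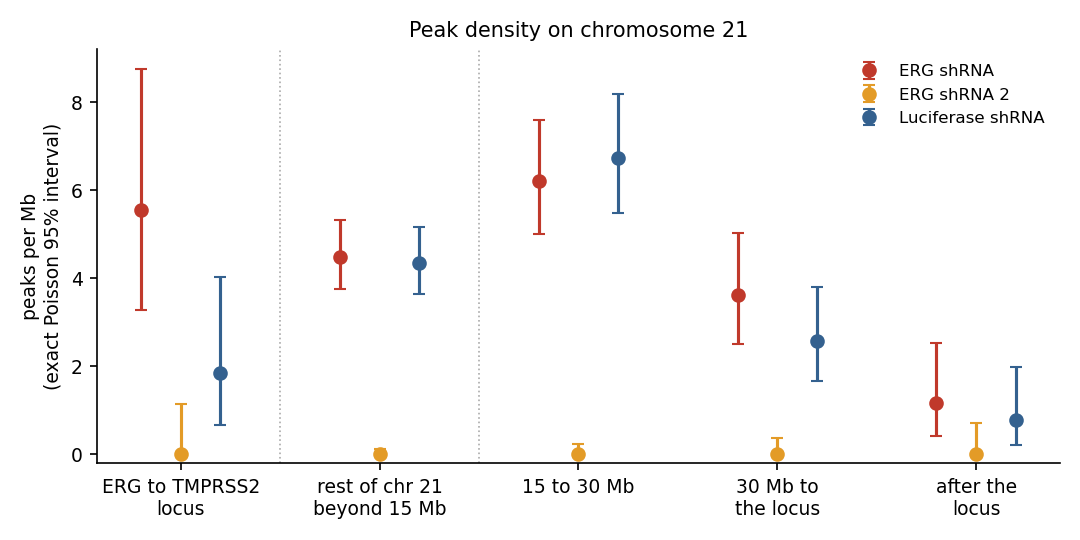
Peaks per Mb (y axis) with exact Poisson 95% intervals in the ERG to TMPRSS2 locus, the rest of chromosome 21 beyond 15 Mb, and that rest in 3 stretches, for ERG shRNA, ERG shRNA 2 and luciferase shRNA. ERG shRNA stands at 5.54 in the locus and at 6.20, 3.61 and 1.16 in the stretches, and luciferase shRNA at 1.85 in the locus and at 6.73, 2.58 and 0.774 in the stretches.

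In the ERG shRNA and control lists the density moved with the position along the chromosome, while ERG shRNA 2 had 0 peaks throughout. From 15 to 30 Mb ERG shRNA had 6.20 peaks per Mb and the control 6.73. From 30 Mb to the locus the values were 3.61 in ERG shRNA and 2.58 in the control, and after the locus 1.16 and 0.774. The control's 1.85 in the locus lay between those of its neighbouring stretches. ERG shRNA's 5.54 lay above those of both of its neighbours, whose intervals were 2.51 to 5.02 and 0.426 to 2.53, and its own interval overlapped the first of these. A comparison with chromosome 21 beyond 30 Mb was added after the values were seen. Against that stretch the ratio for the locus was 2.01 in ERG shRNA and 0.946 in the control, without intervals. The control had 6 peaks in the locus and 4 after it. Whether its locus differs from its own end of the chromosome was not tested.

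Apart from the ERG span, the peaks of the locus had medians close to those of the rest of the chromosome. In ERG shRNA the median pileup was 4.5 tags in the locus and 4 in the rest, and the median fold was 4.29 and 3.97. Without the ERG span these medians of the locus were 4 tags and 3.97. In the control the median pileup was 6 tags in the locus and 6 in the rest, and the median fold 4.23 and 4.25. A q of at most 0.05 was reached by 13 of 18 ERG shRNA members (72.2%, 46.5 to 90.3), against 65.7% in the rest and 72.6% of the whole list. It was reached by 4 of 6 control members (66.7%, 22.3 to 95.7), against 77.7% in the rest and 79.8% of the whole list. A fold of at least 5 was reached by 5 of 18 ERG shRNA members, against 16 of 134 in the rest and 17.4% of the whole list. The local background at the peaks had a median of 1.47 times the genome-wide value in the locus and 1.61 in the rest for ERG shRNA, and 1.28 and 1.35 for the control.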

How the data were processed

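Peak lists of 3 ChIP-seq libraries were used, 1 per group. The submitters' processing notes name build hg19 and the tools MACS2, Bowtie2, bedtools and Picard 2.14.0. Peaks were called with MACS 2.2.7.1 per library against an input of 14360465 tags, with a p cutoff of 0.001, at most 1 tag per position, and tags extended to 115, 154 and 148 bp in ERG shRNA, ERG shRNA 2 and control, per the file headers. The ERG shRNA 2 header names its input differently. The larger of library and input was scaled to the smaller.

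The deposited pileup is a coverage signal. The deposited fold enrichment is a ratio with 1 added to each side. The deposited −log10 p and −log10 q columns had damaged names, and the MACS layout gave their order. A Poisson tail on the deposited pileup and recovered background gave the first of them back within 0.01 for at least 99.97% of peaks per list.

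Background was recovered from pileup and fold. The smallest listable pileup is the lowest with a Poisson tail of at most 0.001. Peaks overlapping by at least 1 bp were shared. The rest of chromosome 21 ran from 15 Mb to 48116580, the last summit listed. Shares have Clopper-Pearson, counts exact Poisson and density ratios exact conditional binomial 95% intervals; a count of 0 was given the limit of 3 counts. Named were every peak in the ERG and TMPRSS2 spans, and the 5 of highest fold per list elsewhere; others were named after their values were seen. The overlap rules were tested on 2000 simulated peaks, with 0 misassigned. The members were chosen with earlier results of these data known. Software was Python 3.11.15 with scipy 1.17.1, numpy 2.4.6, pandas 2.3.3 and, for figures, matplotlib 3.10.9. Peak sequences were not analysed here.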

Additional observations from a re-analysis of the deposited data

Results flagged for a closer look

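The first ERG shRNA and ERG shRNA 2 departed from the control in opposite directions in the locus. The first hairpin exceeded the control by 12 peaks, and for ERG shRNA 2 the difference from the control was -6. The difference between the hairpins was not tested, since each had 1 library, and the ERG shRNA 2 list was short throughout, with 433 peaks and 0 on chromosome 21 beyond 15 Mb. Per the file headers its alignments carry another date-like tag, so hairpin and library cannot be told apart.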

How the results depend on the processing

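Of 62 alternatives over 16 results, 6 moved the value and 56 did not. A value was unmoved within its counting interval, within the interval of the median, or within 1.5 times the count. Some of the 56 could not move, as given below. Of the 6, 5 came from a fold of at least 5. ERG shRNA then had 1.54 peaks per Mb in the locus and the control 0.308, the ERG shRNA ratio of locus to rest was 2.87, its median pileup was 9 tags and its median fold was 7.30. By construction, such a list holds only strong peaks, and 3 of its 5 ERG shRNA members were the ERG peaks. The sixth was the median pileup of ERG shRNA in the locus relative to all other main chromosomes, 0.900, against 1.13 relative to chromosome 21; its cause was not tested. No windows of 30 or more peaks lay beyond 15 Mb, so leaving them out changed nothing. Every overlap rule tried gave 0 shared members, and rules stricter than an overlap of 1 bp could give nothing else. The values of ERG shRNA 2, with 0 peaks on chromosome 21 beyond 15 Mb, could not move under any alternative tried. The control medians of pileup and fold in the locus could not move under the cutoffs on q and fold. With 6 members, the interval of the median ran from the lowest to the highest member. At a fold of at least 5 only 1 control member was left. Comparisons with chromosome 21 beyond 30 Mb and without the ERG span were added after seeing the data. Beyond 30 Mb the ratios were 2.01 in ERG shRNA and 0.946 in the control. Both counted as unmoved, though near the upper ends of their intervals, 2.03 and 0.948. No paired analysis was possible because no group had a second library. Depth limits the result through pileups of 3 to 11 tags.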
